A study of Mus musculus with 24 samples.

Results

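The 4 Hox clusters were followed as RNA in mouse skin from 3 body sites, with and without a wound. Members were the genes of the expression table whose symbol is Hox, a cluster letter from a to d and a number, which gave 37 genes of 18368. They comprised 11 HoxA genes on chromosome 6, 9 HoxB genes on chromosome 11, 9 HoxC genes on chromosome 15 and 8 HoxD genes on chromosome 2. On GRCm38 the members spanned chr6:52155367-52260880, chr11:96271330-96368254, chr15:102921131-103036856 and chr2:74668225-74765142.

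Hox genes encode homeodomain transcription factors that give cells a position along the head-to-tail axis of the embryo. In each cluster the genes lie in the order of their paralog number, and low numbers are switched on earlier and further towards the head than high numbers. Genes of the same number in different clusters are paralogs with related sequences, and fibroblasts of adult skin are known to keep a Hox pattern that reflects where they came from. The connective tissue of the face arises largely from cranial neural crest, of which the most anterior part is known to lack Hox expression, whereas trunk dermis arises from mesoderm.

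Total RNA of full-thickness skin was measured in 24 libraries from 12 CD1 mice aged 7 weeks, 4 mice for each of abdomen, back and cheek. Each mouse carried excisional wounds of 2 mm at a single site, 1 wound on the cheek or 2 on the abdomen or back. After 3 days a punch of 2 mm was taken of wound tissue and another of adjacent unwounded skin, so that every mouse gave a pair of libraries. The 6 groups were therefore unwounded skin and wound at each site, with 4 libraries each, and all mice were shaved, anaesthetised and given an analgesic. Unwounded skin came from wounded mice, and the number of wounds differed with the site, so that these cannot be told apart from the site itself.

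Levels are given as FPKM, fragments scaled by the length of the transcript and by the mapped fragments of the library. Summed over all genes, a library held between 490830 and 608888 FPKM, and the read depth of the libraries is unknown. Markers of epidermis and fibroblasts were high in every library, with sums between 5555 and 18500 FPKM over 6 epidermal genes and between 6105 and 23510 FPKM over 8 fibroblast genes. Libraries of 3 mice stood apart in the summed level of 17 hair follicle and hair shaft genes. This sum was 6946 FPKM in unwounded cheek of mouse 4, 50.8 FPKM in unwounded cheek of mouse 3 and 98.6 FPKM in unwounded back of mouse 2, whose wound had 31.0 FPKM, against 6.44 to 10.7 FPKM in the other 20 libraries. Results that move without these mice are given both ways.

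Unwounded trunk skin expressed most of the 4 clusters, and cheek skin a part of them. The mean level reached 0.5 FPKM for 29 of 37 members in abdomen, 29 in back and 18 in cheek. Summed over the members, Hox RNA was 152 ± 20.8 FPKM in abdomen and 157 ± 11.2 FPKM in back, against 71.0 ± 12.8 FPKM in cheek (mean ± SD, n = 4). The make-up of that sum differed too. HoxD genes gave 17.5 ± 1.7% of the Hox total in abdomen, 19.0 ± 2.4% in back and 52.7 ± 17.2% in cheek, while HoxB genes gave 22.2 ± 2.9%, 21.6 ± 1.8% and 4.78 ± 1.3%. In cheek of mouse 4 the sum was 90.1 FPKM, of which Hoxc13 alone made 40.7 FPKM. Without Hoxc13 the cheek total ranged from 49.4 to 63.2 FPKM and the HoxD share from 52.5 to 70.3%, against 16.2 to 20.2% in abdomen and 17.1 to 22.5% in back.

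**Figure D1:**
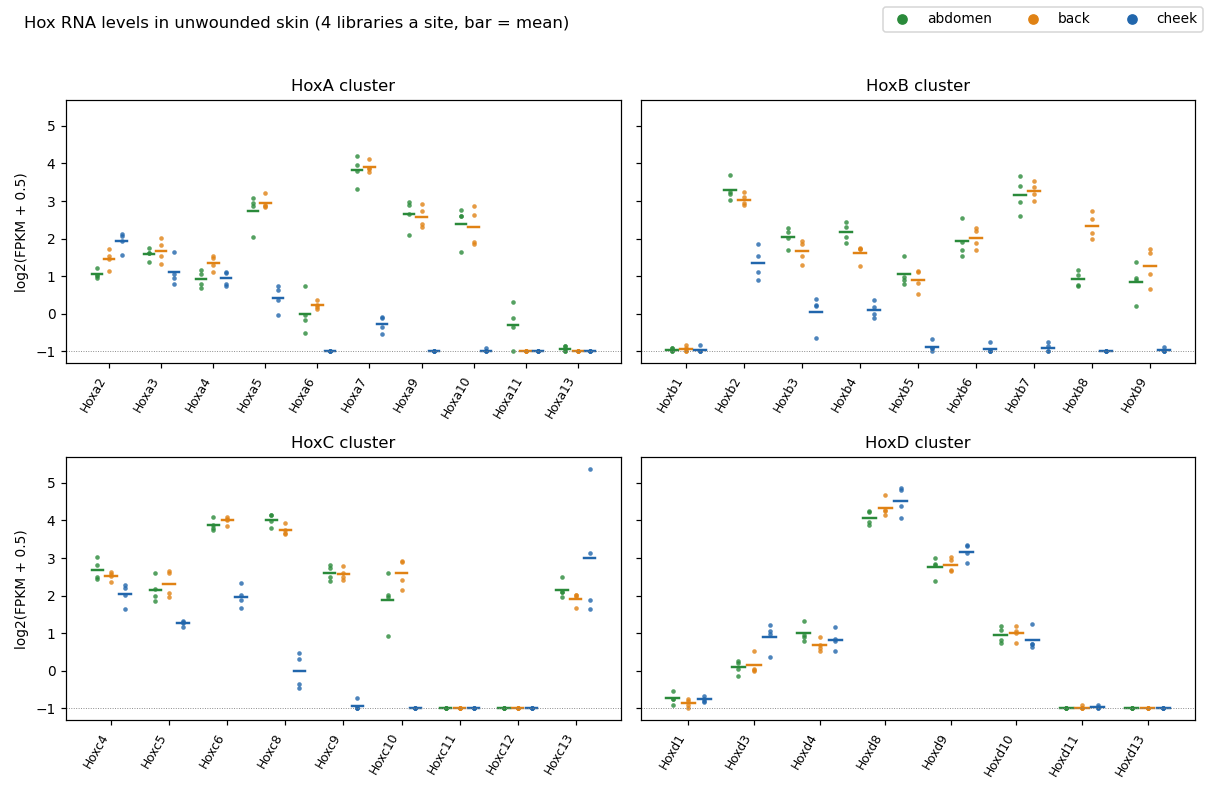
Level of Hox genes in unwounded skin as log2(FPKM + 0.5) on the vertical axis, with genes of the 4 clusters along the horizontal axes, 1 point per library (4 per site) and a short bar at the mean of the site; the dotted line at -1 marks 0 FPKM. Cheek points lie at or near the dotted line from Hoxa9 and Hoxb5 onwards and for Hoxc9 and Hoxc10, while Hoxd8, Hoxd9 and Hoxd10 lie level with the trunk sites.

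Of the 37 members, 29 passed the filter for testing in unwounded skin (0.5 FPKM or more in 4 or more of the 12 libraries). Hoxa6, Hoxa7, Hoxa9, Hoxa10, Hoxb5 to Hoxb9, Hoxc9 and Hoxc10 were under 0.5 FPKM in every cheek library and passed through trunk libraries alone. A call of these members in cheek could only be lower. A gene is called here when its adjusted p in limma was under 0.05, with p-values adjusted over all tested genes. Against abdomen, 20 of the 29 were called in cheek, 18 lower and 2 higher, where 2.57% of all tested genes were called, 1.23% lower and 1.33% higher. Against back, 18 were called, all of them lower, where 1.05% of all tested genes were called, 0.494% lower and 0.559% higher. The median log2 fold change of the 29 members in cheek was -1.91 against abdomen and -1.61 against back, beside 0.03 and 0.14 over all tested genes. Members listed at 0 in cheek enter these medians at a value set by the added 0.5. These fold changes are on the log2(FPKM + 0.5) scale, which understates the change of low genes. In whole skin, fewer cells of a type and less RNA per cell cannot be told apart. The summed fibroblast markers were 9359 to 15630 FPKM in unwounded cheek, 13620 to 19530 in abdomen and 16080 to 23510 in back, and their part in the result was not tested. This sum is weighted to collagen genes such as Col1a1, with means of 3212, 4277 and 5633 FPKM in cheek, abdomen and back. Pdgfra, another of these markers, had means of 19.25, 19.56 and 15.18 FPKM. The same 18 members were lower against both trunk sites, namely 5 HoxA, 8 HoxB and 5 HoxC genes and no HoxD gene.

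Within the HoxA cluster the calls split between Hoxa4 and Hoxa5, with none lower below that point and all lower from Hoxa5 to Hoxa10. Hoxa2, the gene that patterns the second pharyngeal arch, was at 3.74, 3.33, 3.83 and 2.47 FPKM in cheek of mice 1 to 4, at 1.56, 1.42, 1.81 and 1.51 FPKM in abdomen and at 2.80, 2.43, 2.26 and 1.70 FPKM in back. The lowest cheek value exceeded the highest of abdomen, as for 6.16% of tested genes, whereas cheek and back overlapped. The log2 fold change was 0.88 ± 0.16 (SE) against abdomen, with an adjusted p of 0.0159 in limma, and 0.46 ± 0.16 against back, with an adjusted p of 0.149. Without abdomen mouse 2, cheek mouse 1 or cheek mouse 2 the call against abdomen was lost, with an adjusted p of at most 0.0597.

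Hoxa3 and Hoxa4, further anterior HoxA genes, were not called in unwounded cheek. Their cheek means were 64.7% and 82.3% of the mean over the 8 trunk libraries. From Hoxa5 on, a gene with roles in cervical and thoracic patterning, the levels separated. Hoxa5 was at 0.79, 1.05, 1.18 and 0.48 FPKM in cheek and between 3.64 and 8.72 FPKM in the trunk libraries, so that the cheek mean was 12.8% of the trunk mean. Hoxa7, the HoxA gene with the highest level, was at 0.44, 0.28, 0.43 and 0.19 FPKM in cheek. In abdomen it was at 15.0, 9.58, 17.8 and 13.4 FPKM and in back at 16.8, 14.0, 14.2 and 13.3 FPKM. The groups were far apart, with a log2 fold change of -4.09 ± 0.17 against abdomen and -4.18 ± 0.17 against back (adjusted p in limma 3.7e-08 and 2.82e-08). Hoxa6 and Hoxa9 were listed at 0 in all 4 cheek libraries, and Hoxa10 in 3 of them, with 0.03 FPKM in mouse 3. The trunk libraries held 0.20 to 1.16 FPKM of Hoxa6, 3.78 to 7.37 FPKM of Hoxa9 and 2.64 to 6.75 FPKM of Hoxa10. Hoxa6 is the least certain of these, as its call against abdomen was lost without abdomen mouse 2 or any 1 cheek mouse.

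Every tested HoxB gene was lower in cheek. All 8 of them were called against both trunk sites, with the 4 cheek libraries below the 8 trunk libraries for each. For Hoxb5 to Hoxb9 this direction was set by the filter, which they passed through trunk libraries alone. The lowest paralog number among the 8 was the one most retained. Hoxb2, which acts with Hoxa2 in the embryonic hindbrain, was at 1.38, 2.40, 1.67 and 3.12 FPKM in cheek, at 12.4, 8.93, 8.69 and 7.66 FPKM in abdomen and at 8.89, 6.89, 7.16 and 8.10 FPKM in back. Its log2 fold change was -1.93 ± 0.20 against abdomen (adjusted p 0.00022 in limma) and -1.68 ± 0.20 against back (0.00068). Hoxb4, known for its use in expanding blood stem cells, reached 17.6% of the trunk mean. For Hoxb5, Hoxb6, Hoxb7 and Hoxb9 at least 1 cheek library was listed at 0 and none exceeded 0.13 FPKM, and Hoxb8 was listed at 0 in all 4. Hoxb7, the HoxB gene with the highest trunk level, was at 5.57 to 12.3 FPKM in the trunk and at most at 0.10 FPKM in cheek, a log2 fold change of -4.06 ± 0.21 against abdomen and -4.18 ± 0.21 against back (adjusted p in limma 1.84e-07 and 1.73e-07).

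From Hoxc4 to Hoxc10 the cheek level was a smaller share of the trunk level with each higher paralog number, while Hoxc13, described with the hair markers, stood at 376%. As a share of the trunk mean, the cheek mean was 64.6% for Hoxc4, 44.1% for Hoxc5, 23.4% for Hoxc6 and 3.73% for Hoxc8. For Hoxc9 only mouse 4 had a value above 0 (0.11 FPKM), and Hoxc10, a gene of the lumbar region, was listed at 0 in every cheek library. Hoxc6 was at 2.67, 3.51, 3.20 and 4.59 FPKM in cheek, at 16.7, 12.9, 13.3 and 14.3 FPKM in abdomen and at 16.0, 16.5, 15.7 and 13.9 FPKM in back. No cheek library came near the trunk range, and the log2 fold change was -1.91 ± 0.14 against abdomen (adjusted p 9.6e-06 in limma) and -2.03 ± 0.14 against back (3.46e-06). All 4 cheek libraries were below all trunk libraries for Hoxc4 too, with 2.61, 3.58, 4.09 and 4.33 FPKM against 4.60 to 7.59 FPKM, although it was not called. Separation of all cheek libraries downwards occurred for 19 members against each trunk site, and for 4.49% of all tested genes against abdomen and 2.2% against back.

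No fall was called among the HoxD genes in unwounded cheek. For the 5 that were tested, the median log2 fold change was 0.41 against abdomen and 0.19 against back. Hoxd8, the most highly expressed Hox gene at each site by its median, was at 27.7, 28.4, 20.2 and 16.3 FPKM in cheek. It was at 18.6, 14.1, 15.0 and 18.1 FPKM in abdomen and at 17.2, 18.7, 18.4 and 25.2 FPKM in back, so that the 3 sites overlapped. The log2 fold change in cheek was 0.46 against abdomen, with a 95% interval from 0.07 to 0.84 and an adjusted p of 0.19 in limma, and 0.19 against back, with an interval from -0.19 to 0.58 and an adjusted p of 0.536. Hoxd9, a gene active in limb and posterior trunk patterning, had a cheek mean of 132% of the trunk mean, and Hoxd10 one of 87.8%, both without a call.

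Hoxd3 was the HoxD gene called in unwounded cheek. It was at 1.81, 1.57, 1.47 and 0.80 FPKM in cheek, at 0.41, 0.69, 0.65 and 0.53 FPKM in abdomen and at 0.54, 0.94, 0.49 and 0.52 FPKM in back. The cheek libraries were above those of abdomen but overlapped with back through cheek mouse 4 and back mouse 2. Its log2 fold change was 0.81 ± 0.20 against abdomen (adjusted p 0.0493 in limma) and 0.75 ± 0.20 against back (0.0912), and the first call held in 2 of 12 fits that each left out 1 mouse. The exons annotated for Hoxd3 share 68.6% of their bases, and those of Hoxd4 45.1%, with the gene model Gm28230 on the same strand, so that their reads may have been split.

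Read by paralog number, members of 1 group often took different courses. Among paralogs 8, Hoxb8 and Hoxc8 were lower in cheek and Hoxd8 was not called. Among paralogs 9, Hoxa9, Hoxb9 and Hoxc9 were lower at both comparisons, whereas Hoxd9 was at 9.55, 9.63, 8.30 and 6.74 FPKM in cheek against 4.70 to 7.61 FPKM in the trunk. Among paralogs 10, Hoxa10 and Hoxc10 were at or near 0 in cheek, whereas Hoxd10 was at 1.05 to 1.88 FPKM there and at 1.16 to 1.77 FPKM in the trunk. The paralogs 5, 6 and 7, which have no HoxD gene in the mouse, were lower in cheek for all 8 genes measured. For Hoxa6, Hoxa7 and Hoxb5 to Hoxb7 this direction was set by the filter, which they passed through trunk libraries alone. The same holds for Hoxa9, Hoxa10, Hoxb8, Hoxb9, Hoxc9 and Hoxc10. Opposite-strand transcripts overlap 58.5% of the exon bases of Hoxb2 and 63.9% of those of Hoxb3, and whether counting used the strand is not given in the sources used here, so that these levels may hold reads of both.

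The starts of 4 genes that stand for these patterns are shown with their sequence. Hoxa2 had its highest mean in cheek, Hoxa5 was the most anterior HoxA gene that was lower there, Hoxb8 was highest in back, and Hoxd8 overlapped among the sites. Printed are the 250 bases upstream of the annotated start, 5′ to 3′ on the strand of the gene, from RefSeq on GRCm38.p6. They lie at chr6:52164832-52165081 (minus strand) for Hoxa2, chr6:52204588-52204837 (minus strand) for Hoxa5, chr11:96281655-96281904 (plus strand) for Hoxb8 and chr2:74704365-74704614 (plus strand) for Hoxd8, and none overlaps an annotated exon. For Hoxb8 this start lies inside the RefSeq span of the gene (chr11:96279401-96285325), and RefSeq spans also gave the cluster positions. Capitals mark 4 short motifs searched on both strands, namely the TATA box, spelled TATAAA, the box named for its letters CCAAT, the GC box, spelled GGGCGG, and the core bound by PBX-HOX pairs, spelled TGATNNAT. No marked motif overlaps another.
Hoxa2: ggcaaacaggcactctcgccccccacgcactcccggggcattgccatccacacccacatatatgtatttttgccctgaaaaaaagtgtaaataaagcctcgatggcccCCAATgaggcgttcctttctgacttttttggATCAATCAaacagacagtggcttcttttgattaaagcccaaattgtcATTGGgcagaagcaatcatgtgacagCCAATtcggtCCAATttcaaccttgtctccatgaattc
Hoxa5: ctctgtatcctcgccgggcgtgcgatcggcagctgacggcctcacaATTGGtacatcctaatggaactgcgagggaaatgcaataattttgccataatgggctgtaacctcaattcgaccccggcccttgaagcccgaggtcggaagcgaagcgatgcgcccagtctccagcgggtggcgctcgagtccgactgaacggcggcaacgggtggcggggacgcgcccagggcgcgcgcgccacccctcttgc
Hoxb8: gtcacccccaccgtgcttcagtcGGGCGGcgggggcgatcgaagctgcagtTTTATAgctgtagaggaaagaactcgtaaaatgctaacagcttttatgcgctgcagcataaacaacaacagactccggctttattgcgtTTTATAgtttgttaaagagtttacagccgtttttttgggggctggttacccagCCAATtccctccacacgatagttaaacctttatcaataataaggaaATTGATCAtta
Hoxd8: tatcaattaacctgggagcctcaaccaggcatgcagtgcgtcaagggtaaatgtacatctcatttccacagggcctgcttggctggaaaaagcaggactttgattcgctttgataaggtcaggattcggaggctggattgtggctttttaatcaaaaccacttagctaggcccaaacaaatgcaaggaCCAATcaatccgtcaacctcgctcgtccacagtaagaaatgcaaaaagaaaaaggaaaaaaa
The Hoxa2 stretch held 4 CCAAT motifs and 1 PBX-HOX motif and the Hoxb8 stretch 2 TATA motifs, 1 CCAAT motif, 1 GC box and 1 PBX-HOX motif, while the stretches of Hoxa5 and Hoxd8 held 1 CCAAT motif each. Promoter entries were found for 21 of the 37 members, 23 entries in all. Of these, 4 held the TATA motif, 13 the CCAAT motif, 10 the GC box and 4 the PBX-HOX motif, whereas 12.4%, 33.8%, 32.7% and 7.68% of 32851 mouse promoters of that length did. The number of CG dinucleotides varied widely among the Hox entries, from 2 to 35 with a median of 13, beside a median of 6 over all promoters. Of the 4 genes shown, Hoxa5 had 28 CG dinucleotides, Hoxb8 12, and Hoxa2 and Hoxd8 6 each. A match of letters is a description and does not show binding.

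Between the unwounded trunk sites, Hoxb8 was the 1 Hox gene called. In unwounded skin 1 of 29 tested members was called between back and abdomen, where 2.67% of all tested genes were called, 0.53% higher and 2.14% lower. The count of members is thus close to the share of all tested genes. An unadjusted p under 0.05 was found for 5 members, without a count of such genes over all tested genes. Hoxb8, a gene of thoracic patterning that also acts in blood-derived cells, was at 3.92, 6.16, 3.50 and 5.24 FPKM in back and at 1.73, 1.18, 1.55 and 1.19 FPKM in abdomen. The groups did not overlap, as for 2.59% of all tested genes in this direction, and the log2 fold change was 1.43 ± 0.17 with an adjusted p of 0.00148 in limma, a call that held in each of the 12 fits without 1 mouse. The median log2 fold change of the 29 members was 0.07, while that of all tested genes was -0.12. In the opposite direction, Hoxb4 was at 2.88, 2.79, 1.93 and 2.79 FPKM in back and at 4.92, 3.65, 4.42 and 3.16 FPKM in abdomen, again without overlap, but with an adjusted p of 0.0988. Complete separation downwards occurred for 10.7% of all tested genes in this comparison. Scaling by median ratios moved the median of all tested genes from -0.12 to 0.0041 here and from 0.14 to 0.01 for unwounded cheek against back, and left 1 and 18 members called in the same directions.

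The member of each cluster with the highest mean over all 24 libraries showed no call between back and abdomen. The log2 fold changes were 0.09 ± 0.17 for Hoxa7, -0.25 ± 0.20 for Hoxb2, 0.12 ± 0.14 for Hoxc6 and 0.26 ± 0.18 for Hoxd8, with 95% intervals from -0.28 to 0.46, -0.68 to 0.18, -0.18 to 0.42 and -0.12 to 0.65. Hoxd3 differed by 0.06 ± 0.20. Hoxa11, a posterior gene of limb and uterus, was too low for the test. It was at 0.42, 0, 0.75 and 0.29 FPKM in unwounded abdomen and was listed at 0 in all unwounded back and cheek libraries. An exact two-sided permutation test of abdomen against back gave p = 0.14, where 4 against 4 libraries allow no p below 0.029. The other members that were never tested, Hoxa13, Hoxb1, Hoxc11, Hoxc12, Hoxd1, Hoxd11 and Hoxd13, did not exceed 0.27 FPKM in any library.

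Hoxc13, which controls hair keratin genes and the formation of the hair shaft, differed widely within unwounded cheek. In unwounded cheek it was at 3.22, 2.63, 8.27 and 40.7 FPKM in mice 1 to 4, and in the trunk it was at 2.68 to 5.12 FPKM. Its 2 highest values were in cheek of mouse 4 and mouse 3, the unwounded cheek libraries with 6946 and 50.8 FPKM of hair markers, whereas unwounded back of mouse 2 combined 98.6 FPKM of hair markers with 3.41 FPKM of Hoxc13. The log2 fold change of unwounded cheek was 0.85 ± 0.66 against abdomen and 1.10 ± 0.66 against back, with adjusted p of 0.528 and 0.356 in limma. Without cheek mice 3 and 4 and back mouse 2 the direction turned, with -0.39 against abdomen and -0.13 against back. The labels state that the mice were synchronised in the resting phase of the hair cycle, and the part of the hair cycle in these values was not tested.

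**Figure D2:**
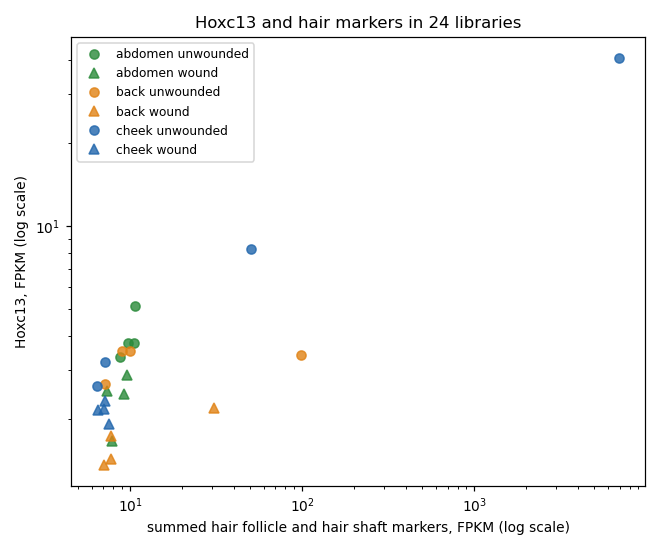
Hoxc13 in FPKM (vertical, log scale) against the summed level of 17 hair follicle and hair shaft markers in FPKM (horizontal, log scale), 1 symbol per library, coloured by site with circles for unwounded skin and triangles for wounds. Unwounded cheek of mouse 4 stands at the top right with 40.7 FPKM of Hoxc13, and most libraries lie between 6.44 and 10.7 FPKM of markers.

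The site pattern was present in day 3 wounds as well. Here 28 members were tested. Hoxa7, Hoxa9, Hoxa10, Hoxb5 to Hoxb9 and Hoxc8 to Hoxc10 were under 0.5 FPKM in every cheek wound and passed the filter through trunk wounds alone. A call of these members in cheek wounds could only be lower. In cheek wounds 22 were called against abdomen wounds, 19 lower and 3 higher, where 10.8% of all tested genes were called, 3.32% lower and 7.52% higher. Against back wounds 20 were called, 18 lower and 2 higher, where 2.5% of all tested genes were called, 0.599% lower and 1.9% higher. The median log2 fold change of the members was -1.97 and -1.69, beside 0.07 and 0.09 over all tested genes. Without the 3 mice with high hair markers the 2 counts were 16 and 13. The members called lower at both comparisons numbered 18 in unwounded skin and 18 in wounds, and 17 were shared, which is 94.4% of either list. Hoxa6 was in the first list and was not tested in wounds, and Hoxc4 was in the second. Both lists came from the same mice. Among the shared members, Hoxa7, Hoxa9, Hoxa10, Hoxb5 to Hoxb9, Hoxc9 and Hoxc10 could only be called lower in either state. How many of all tested genes were shared in this way was not counted.

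The largest differences of cheek wounds from trunk wounds on the log2 scale were those of Hoxc8 and Hoxb7. Both, like Hoxa7, passed the filter through trunk wounds alone, so that the filter set their direction. With cheek levels at or near 0, the size of the difference was set mainly by the trunk level. The means over trunk wounds were 11.1 FPKM for Hoxc8 and 8.0 FPKM for Hoxb7. Their rank and adjusted p therefore do not show a stronger loss in cheek than for other members near 0 there. Hoxc8, a thoracic paralog, was at 0.02, 0.17, 0.10 and 0.32 FPKM in cheek wounds, at 9.24, 11.8, 14.2 and 13.6 FPKM in abdomen wounds and at 9.89, 10.7, 9.80 and 9.26 FPKM in back wounds. The cheek wounds lay below all trunk wounds, as for 5.4% of all tested genes against abdomen and 4.06% against back, with log2 fold changes of -4.29 ± 0.15 and -4.01 ± 0.15 (adjusted p in limma 2.64e-08 and 3.06e-08). Hoxb7 was listed at 0 in every cheek wound and was at 5.77 to 10.1 FPKM in trunk wounds. Hoxa7, Hoxb2 and Hoxc6 were called lower against both as well. Their log2 fold changes against abdomen and back wounds were -3.74 ± 0.21 and -3.63 ± 0.21 for Hoxa7, -2.55 ± 0.23 and -2.03 ± 0.23 for Hoxb2, and -3.47 ± 0.30 and -3.06 ± 0.30 for Hoxc6.

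Higher members in cheek wounds were few. Hoxd3 was at 1.43, 0.94, 1.41 and 1.2 FPKM in cheek wounds, at 0.27, 0.88, 0.73 and 0.50 FPKM in abdomen wounds and at 0.39, 0.33, 0.32 and 0.42 FPKM in back wounds. The cheek wounds were above all trunk wounds, and the log2 fold change was 0.70 ± 0.18 against abdomen and 1.00 ± 0.18 against back (adjusted p in limma 0.0307 and 0.0209). Hoxd4 was at 1.22, 1.32, 1.33 and 1.53 FPKM in cheek wounds and at 0.50 to 0.96 FPKM in trunk wounds, again with no overlap. Its log2 fold change was 0.40 ± 0.11 against abdomen and 0.75 ± 0.11 against back (adjusted p 0.0346 and 0.00485). Upward separation of cheek wounds occurred for 13.6% of all tested genes against abdomen and 17.2% against back, and both Hoxd3 and Hoxd4 were not called against either trunk site without the 3 mice with high hair markers. Hoxa2 was called against abdomen wounds (0.69 ± 0.19, adjusted p 0.039), with overlapping groups and the call held in 4 of 12 fits without 1 mouse. Hoxd8 and Hoxc13 were not called, with log2 fold changes of 0.45 ± 0.14 and -0.11 ± 0.15 against abdomen and of 0.48 ± 0.14 and 0.29 ± 0.15 against back.

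Between back and abdomen wounds Hoxb8 was again the 1 member called among 28 tested, where 1.27% of all tested genes were called, 0.506% higher and 0.763% lower. It was at 4.00, 3.71, 5.04 and 5.42 FPKM in back wounds and at 1.23, 3.32, 1.27 and 2.03 FPKM in abdomen wounds. The groups were separate by the narrow gap between 3.32 and 3.71 FPKM. Such separation was found for 3.84% of all tested genes upwards and 5.33% downwards, and the log2 fold change was 1.10 ± 0.22 with an adjusted p of 0.0406 in limma. The call was lost in 8 of 12 fits without 1 mouse, among them each fit without a back mouse, with an adjusted p of at most 0.113. Hoxa7, Hoxb2, Hoxc6, Hoxc13, Hoxd3 and Hoxd8 were not called, with log2 fold changes between -0.52 and -0.03.

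**Figure D3:**
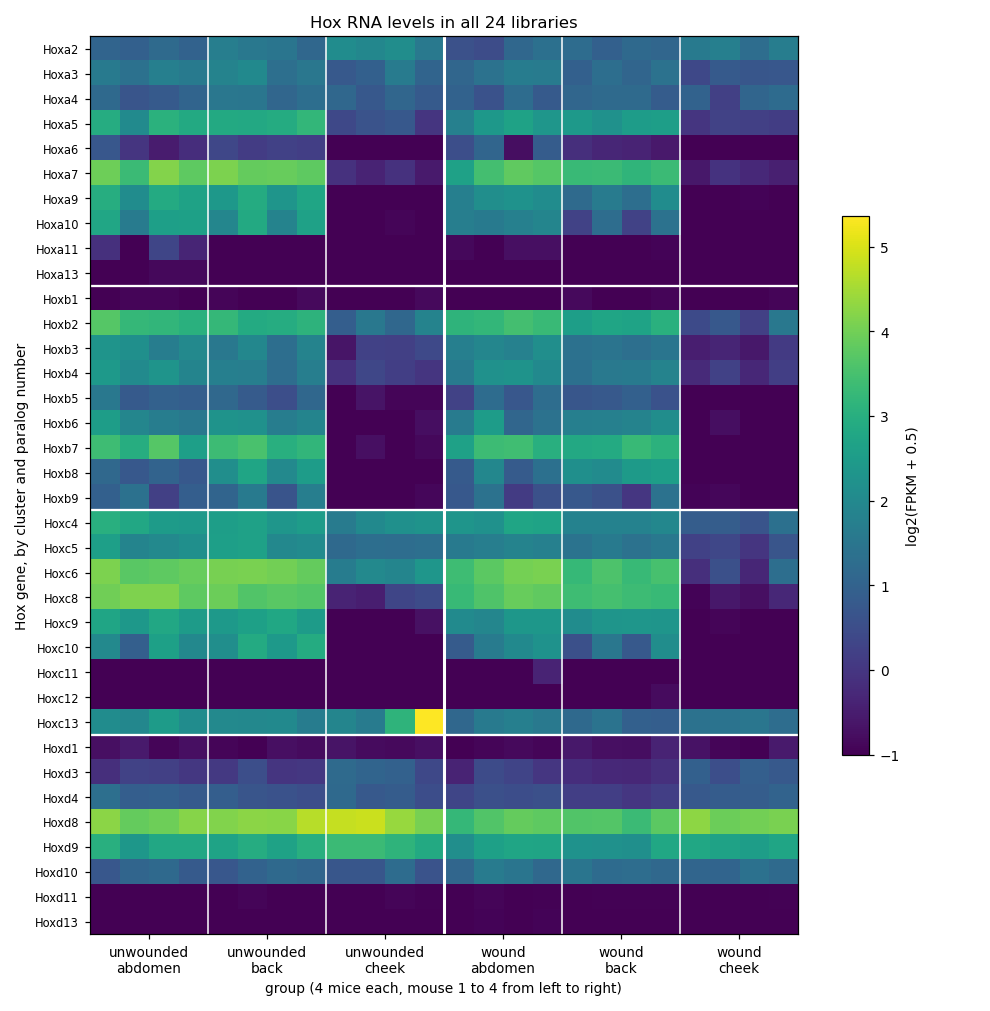
Level of the Hox genes (rows, by cluster and paralog number) in all 24 libraries (columns, by group and mouse) as log2(FPKM + 0.5), where the darkest colour at -1 is 0 FPKM. The dark blocks of cheek from Hoxa5 to Hoxa10, in HoxB and from Hoxc8 to Hoxc10 appear in unwounded skin and in wounds, and the Hoxd8 and Hoxd9 rows are bright in all groups.

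Single Hox genes were called between wound and unwounded skin at each site, most of them lower in the wound. Over all 24 libraries 29 members were tested, each mouse against itself. In abdomen wounds 6 were called, 5 lower and 1 higher, where 32.9% of all tested genes were called. In back wounds 16 were called, 15 lower and 1 higher, where 45.9% of all tested genes were called, and in cheek wounds 11 were called, 9 lower and 2 higher, where 36.6% were called. By direction, 17.9% of all tested genes were called lower in back wounds, 16.9% in cheek wounds and 16% in abdomen wounds, and 28%, 19.7% and 16.9% were called higher. At an adjusted p under 0.001, no member was called in abdomen wounds, 3 were lower in back wounds and 3 in cheek wounds. The share of all tested genes past that limit was 1.04% lower and 3.92% higher in abdomen, 4.37% and 10% in back, and 2.19% and 6.5% in cheek. For abdomen, back and cheek wounds the members had median log2 fold changes of -0.18, -0.48 and -0.11, beside -0.01, 0.07 and 0.01 over all tested genes. In the cheek, Hoxa6, Hoxb8 and Hoxc10 were listed at 0 before and after wounding, so that no fall could be measured there. Hoxa9, Hoxa10, Hoxb5, Hoxb6, Hoxb7, Hoxb9 and Hoxc9 did not exceed 0.13 FPKM in any cheek library, which left hardly any room for a fall. All these members enter the cheek count and the cheek median with an effect at or near 0. Among the 37 members, 29 of which were tested, 18 were called lower at 1 or more sites, as were 27.4% of all tested genes, and none was called in both directions.

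Cell type markers differed between wound and unwounded skin too. The ratio of wound to unwounded skin for summed fibroblast markers had medians of 0.613, 0.576 and 0.621 for abdomen, back and cheek (0.55 to 0.672, 0.468 to 0.655 and 0.39 to 1.21 over the mice), while those for the Hox total were 0.918, 0.675 and 0.591. Collagen genes and Dcn weigh most in the fibroblast sum. The means of Col1a1, Col1a2, Col3a1, Dpt, Dcn and Lum were lower in wounds at each site. Mean Pdgfra was 19.56, 15.18 and 19.25 FPKM in unwounded abdomen, back and cheek and 19.12, 23.04 and 29.64 FPKM in wounds. Mean Twist2 was 30.96, 35.91 and 31.45 FPKM before and 30.25, 33.03 and 33.28 FPKM after wounding. Single mice had Hox ratios of 0.539 to 1.00 for the abdomen, 0.63 to 0.733 for the back and 0.513 to 0.669 for the cheek. The lowest cheek ratio was that of mouse 4, which had 40.7 FPKM of Hoxc13 before wounding, and without Hoxc13 the cheek ratios were 0.584 to 0.897, with mouse 4 the highest. Epidermal markers were at 1.31 to 2.36 times, macrophage markers at 1.62 to 4.02 times and neutrophil markers at 21.5 to 164 times the level of unwounded skin of the same mouse, and the median ratios of muscle markers were 0.976, 0.227 and 0.374 for abdomen, back and cheek, with a range from 0.113 to 5.07 in abdomen. In abdomen mice 1 to 4 the ratios were 0.539, 1.00, 0.871 and 0.966 for the Hox total and 0.672, 0.571, 0.55 and 0.656 for fibroblasts. In back mice they were 0.63, 0.641, 0.708 and 0.733 for the Hox total and 0.655, 0.536, 0.468 and 0.616 for fibroblasts. In cheek mice they were 0.669, 0.593, 0.589 and 0.513 for the Hox total and 0.697, 0.39, 0.544 and 1.21 for fibroblasts. The part of these cell types in the Hox values was not tested.

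**Figure D4:**
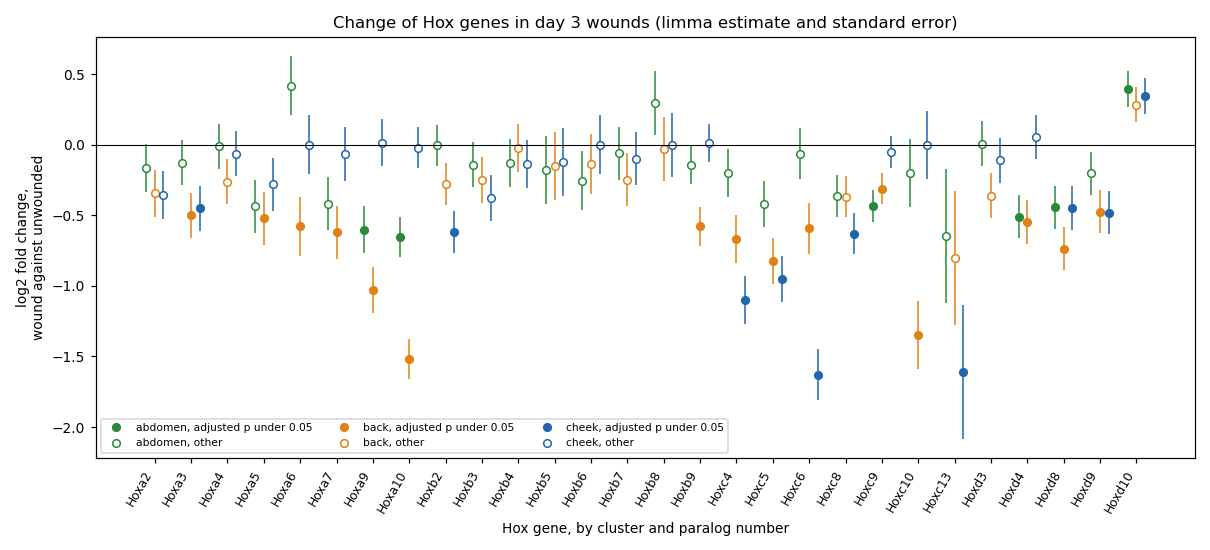
Log2 fold change of tested Hox genes in wounds against unwounded skin of the same mice (vertical axis, limma estimate with its standard error), by gene on the horizontal axis and coloured by site, with filled points for an adjusted p under 0.05. Cheek points near 0 for Hoxa6, Hoxa9, Hoxa10, Hoxb5 to Hoxb9, Hoxc9 and Hoxc10 belong to genes at or near 0 FPKM in cheek, and the lowest points are Hoxa10 in back and Hoxc6 and Hoxc13 in cheek.

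The largest falls called in back wounds were those of Hoxa10, Hoxc10 and Hoxa9. Hoxa10, a gene of lumbar and sacral patterning, was at 3.28, 6.75, 3.10 and 5.74 FPKM in unwounded back and at 0.69, 1.92, 0.70 and 2.13 FPKM in the wounds of the same mice. Every wound was below every unwounded library, and the log2 fold change was -1.52 ± 0.14 with an adjusted p of 6.25e-06 in limma. Hoxc10 went from 3.91, 6.90, 4.81 and 7.07 FPKM to 0.98, 2.35, 1.21 and 3.83 FPKM, again in all 4 mice and without overlap (-1.35 ± 0.24, adjusted p 0.000725). Hoxa9 fell by 1.03 on the log2 scale in back, while Hoxc9, another posterior gene, fell by 0.31. For Hoxc10 in abdomen the values were 3.52, 1.41, 5.59 and 3.39 FPKM before and 1.27, 2.62, 3.55 and 4.20 FPKM after wounding, lower in 2 of 4 mice, and the gene was not called there (-0.20 ± 0.24). Hoxa7, Hoxc6 and Hoxd8 were called lower in back wounds too (-0.62 ± 0.19, -0.59 ± 0.18 and -0.74 ± 0.15), while Hoxb2, Hoxc13 and Hoxd3 were not (-0.28 ± 0.15, -0.80 ± 0.47 and -0.36 ± 0.16). Without back mouse 1 the number called in back wounds was 9, and without back mouse 3 it was 10.

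Abdomen wounds had fewer calls. Hoxa10 was at 6.26, 2.64, 5.53 and 5.59 FPKM in unwounded abdomen and at 2.81, 2.54, 2.89 and 3.21 FPKM in the wounds. It was lower in 4 of 4 mice, but the groups overlapped through mouse 2, which was low before wounding, and the log2 fold change was -0.66 ± 0.14 (adjusted p 0.00468 in limma). Hoxa9 was also called lower (-0.60 ± 0.17, adjusted p 0.0149), as were Hoxc9, Hoxd4 and Hoxd8. For Hoxd8 the log2 fold change was -0.44 ± 0.15 with an adjusted p of 0.0423, and the gene was lower in 4 of 4 mice, as 25% of all tested genes were. Hoxa7, Hoxb2, Hoxc6, Hoxc13 and Hoxd3 were not called, at -0.42 ± 0.19, -0.005 ± 0.15, -0.06 ± 0.18, -0.65 ± 0.47 and 0.01 ± 0.16. The count of 6 members rested on single mice, since leaving out abdomen mouse 1 gave 1 member and leaving out abdomen mouse 3 gave 3.

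In cheek wounds 9 members were called lower, and Hoxc4, Hoxc5, Hoxc6 and Hoxc8 were among them. Hoxc6, involved in mammary gland and thoracic patterning, was at 2.67, 3.51, 3.20 and 4.59 FPKM in unwounded cheek and at 0.40, 0.97, 0.30 and 1.97 FPKM in the wounds of the same mice. The wounds held between 0.0937 and 0.429 times the unwounded level, every wound was below every unwounded library, and the log2 fold change was -1.63 ± 0.18 with an adjusted p of 3.07e-05 in limma. Hoxc4 went from 2.61, 3.58, 4.09 and 4.33 FPKM to 1.34, 1.35, 1.06 and 2.03 FPKM (-1.10 ± 0.17, adjusted p 0.000386). Hoxc5 went from 1.75, 1.96, 1.91 and 2.00 FPKM to 0.67, 0.78, 0.49 and 1.11 FPKM (-0.95 ± 0.16, adjusted p 0.00074). Hoxc8 was called lower as well, from 0.28, 0.23, 0.75 and 0.88 FPKM to 0.02, 0.17, 0.10 and 0.32 FPKM. These Hoxc8 levels are low, around or below the added 0.5. Each of these genes was lower in 4 of 4 mice, as 25.4% of all tested genes were, without overlap for Hoxc4, Hoxc5 and Hoxc6 and with overlap for Hoxc8. Each of the 4 calls held in all 12 fits without 1 mouse. As a share of the trunk wounds, cheek wounds held 34.8% of Hoxc4, 29.5% of Hoxc5, 7.58% of Hoxc6 and 1.38% of Hoxc8.

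Other members called in cheek wounds were Hoxb2, at -0.62 ± 0.15, and Hoxd8, at -0.45 ± 0.15 with 3 of 4 mice lower, besides Hoxa3 and Hoxd9. Hoxa7 and Hoxd3 were not called, at -0.07 ± 0.19 and -0.11 ± 0.16. Hoxc13 was called lower (-1.61 ± 0.47, adjusted p 0.022), from 3.22, 2.63, 8.27 and 40.7 FPKM to 2.15, 2.18, 2.33 and 1.92 FPKM. The hair marker sums of the same mice were 6.44 to 6946 FPKM before and 6.56 to 7.59 FPKM after wounding. Without cheek mice 3 and 4 and back mouse 2 its log2 fold change was -0.36 and the call was lost, with an adjusted p of 0.155, and the number of members called in cheek wounds was 4 in place of 11. Without cheek mouse 3 alone that number was 6.

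Hoxd10 was called higher in wounds at a pair of sites, abdomen and cheek. This posterior gene of limb and spinal cord was at 1.16, 1.62, 1.77 and 1.25 FPKM in unwounded abdomen and at 1.64, 2.65, 2.29 and 1.73 FPKM in the wounds. In cheek it went from 1.14, 1.13, 1.88 and 1.05 FPKM to 1.59, 1.58, 2.07 and 1.81 FPKM. Every mouse was higher in its wound, at 12 of 12 over the 3 sites, and the log2 fold change was 0.40 ± 0.13 in abdomen and 0.35 ± 0.13 in cheek (adjusted p 0.0299 and 0.0478) and 0.28 ± 0.13 in back (0.0832). The cheek call held in 2 of 12 fits without 1 mouse. Of all tested genes, 23.7% were higher in 4 of 4 abdomen mice, 33.9% in 4 of 4 back mice and 25% in 4 of 4 cheek mice.

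**Figure D5:**
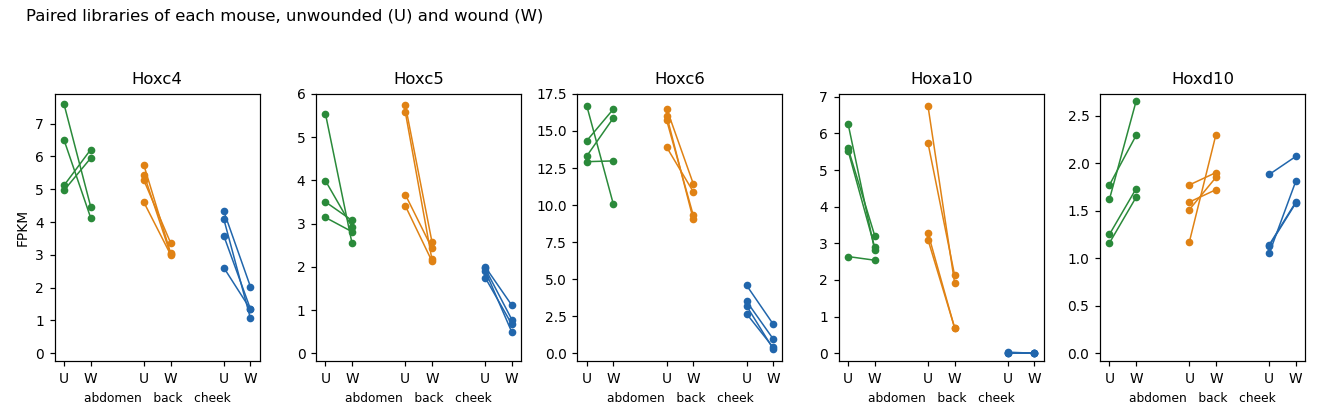
FPKM (vertical axes, linear from 0) of 5 Hox genes in unwounded skin (U) and wound (W), with a line joining the 2 libraries of each mouse and colours for abdomen (green), back (orange) and cheek (blue). Hoxc4, Hoxc5 and Hoxc6 go down in each back and cheek mouse, Hoxa10 in each back mouse, and Hoxd10 goes up in all 12 mice.

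Whether the wound response differed between the sites was tested by limma's F test over the 3 wound effects. It called 0 of the 29 tested members, where 0.0208% of all tested genes were called. An unadjusted p under 0.05 was found for 9 members, and the share of all tested genes with such a p was not counted. The smallest adjusted p was that of Hoxa10 (0.0616), followed by Hoxc6 (0.114). With other settings the count was 0 or 1, and the 1 was Hoxa10. Without abdomen mouse 1 it was 4, namely Hoxa9, Hoxa10, Hoxc6 and Hoxc10, and without abdomen mouse 2 it was 1. Of these, Hoxa9, Hoxa10 and Hoxc10 did not exceed 0.03 FPKM in any cheek library. Their cheek effect was therefore fixed near 0, and the test could not compare a cheek response for them. The differences in call between sites, such as that of Hoxc6 in cheek and abdomen wounds, were thus not shown to be differences in response.

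Partners and regulators of Hox genes were counted by list. Between unwounded sites 1.05% to 2.67% of all tested genes were called. No gene among 9 TALE cofactors, the homeodomain proteins that bind DNA together with Hox proteins, was called between unwounded sites. In wounds, Pknox2 was higher in cheek than in abdomen (0.93 ± 0.15) and back (0.86 ± 0.15) and fell on wounding by 1.24 on the log2 scale in back and by 0.87 in cheek. Of 14 Polycomb genes, which keep Hox clusters silent, 1 was called lower in unwounded back than in abdomen and none in unwounded cheek against either trunk site. In wounds Jarid2 was higher and Cbx7 and Bmi1 were lower at all 3 sites, each a component or partner of Polycomb complexes.

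Among 7 Trithorax genes, which keep Hox genes active, none was called between unwounded sites. Kdm6b, which removes the Polycomb mark from histone H3, was higher in wounds at each site, with log2 fold changes of 0.47 ± 0.10, 0.43 ± 0.10 and 0.53 ± 0.10 in abdomen, back and cheek. Kmt2a was higher in cheek wounds than in back wounds (0.52 ± 0.10). Of 9 Cdx and retinoid genes, which set Hox expression in the embryo, 4 were tested, and 2 were called in cheek against abdomen wounds, where 10.8% of all tested genes were. Cyp26b1, an enzyme that breaks down retinoic acid, was higher in cheek wounds than in abdomen (0.49 ± 0.08) and back wounds (0.61 ± 0.08), and Rarg was lower in cheek wounds than in abdomen wounds (-0.46 ± 0.09). Cdx1, Cdx2 and Cdx4 did not exceed 0.04 FPKM in any library.

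In wounds against unwounded skin, where 32.9%, 45.9% and 36.6% of all tested genes were called in abdomen, back and cheek, the calls in these lists went both ways. In abdomen, back and cheek wounds, 0, 2 and 0 of the 9 TALE genes were higher and 0, 1 and 1 lower, while 1 of the 14 Polycomb genes was higher and 3 were lower at each site. Of the 7 Trithorax genes 2, 2 and 1 were higher and 1, 0 and 0 lower, and of the 4 tested Cdx and retinoid genes 1 was higher at each site and 1, 0 and 1 lower.

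Genes next to the clusters were not called between unwounded sites. Of 11 neighbours listed, 7 were tested, with a median log2 fold change of 0.004 in cheek against abdomen. In cheek wounds Lnpk, next to the HoxD cluster, was higher than in abdomen (0.41 ± 0.10) and back wounds (0.41 ± 0.10). It was the 1 of 7 called in each, where 10.8% and 2.5% of all tested genes were. On wounding, 3, 5 and 5 of the 7 were called in abdomen, back and cheek, where 32.9%, 45.9% and 36.6% of all tested genes were. Among them Skap2, next to the HoxA cluster, was higher and Hibadh and Lnpk were lower at all 3 sites.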

How the data were processed

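FPKM values per library were deposited by the authors, made by a sequencing provider without pooling replicates. Per the labels and the study's methods, reads were mapped to GRCm38 (mm10) with HISAT2 and Bowtie2 (version 2.2.5) and quantified with RSEM (version 1.2.12). No counts were used, so depth and counting error are unknown. A second deposited table holds the authors' own DESeq2 fold changes and adjusted p-values and was not used. All per-sample columns were used, with 0 left out.

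Values were tested as log2(FPKM + 0.5) with limma (version 3.58.1, statmod 1.5.0, R 4.3.3), with a variance trend and robust estimation, for genes at 0.5 FPKM or more in 4 or more libraries of the fit. Benjamini-Hochberg adjustment covered all tested genes, at a threshold of 0.05. P-values measure the spread among these mice. A gene listed at 0 throughout a group is given without a fold change against that group. Sites were compared within the 12 unwounded and the 12 wound libraries, and wound effects over 24 libraries with a term for each mouse. In simulated data with 200 genes changed by 1 on the log2 scale, 75.5% were recovered between unwounded cheek and abdomen (14068 genes) and 82.5% in cheek wounds (14377 genes). Wound and unwounded libraries share a mouse by their labels, and the deviations of the 12 pairs correlated with a mean r of 0.32 (range -0.03 to 0.53), against -0.11 for different mice.

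The members and all gene and marker lists were chosen with earlier results of these data known. Any member could be named. Each comparison gives fold changes for up to 2 called members in either direction, those that differed most, and for Hoxa7, Hoxb2, Hoxc6, Hoxd8, Hoxc13 and Hoxd3. Hoxb8 was included as a call between trunk sites, and further members were chosen after their values were seen. Some genes, 1 member among them, are counted in totals but not reported singly here or drawn. Exon overlaps were read from GENCODE M21. The alternatives were other pseudocounts, filters, scalings and variance settings, other sets of libraries, the mouse term and leaving out mice.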

Additional observations from a re-analysis of the deposited data

Results flagged for a closer look

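In 10 of 180 groups of 4 libraries checked (members and cluster sums with at least 0.5 FPKM in 1 library of the group), 1 library lay far from the other 3, judged by its gap to the nearest of them over the whole range. Chance alone gives such a gap in about 1 of 20 groups, so that this number is close to what chance gives.

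Hoxc13 in unwounded cheek was highest in mouse 4, at 40.7 FPKM against 2.63 to 8.27 FPKM, and with it the Hox total, at 90.1 FPKM against 63.0 to 65.9 FPKM. In unwounded back Hoxc13 was lowest in mouse 4 (2.68 FPKM against 3.41 to 3.54 FPKM), Hoxb4 was lowest in mouse 3 (1.93 FPKM against 2.79 to 2.88 FPKM) and Hoxd3 was highest in mouse 2 (0.94 FPKM against 0.49 to 0.54 FPKM). Hoxd10 in unwounded cheek was highest in mouse 3, at 1.88 FPKM against 1.05 to 1.14 FPKM.

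Among back wounds, mouse 4 was highest for Hoxc4 (3.37 FPKM against 3.01 to 3.06 FPKM) and Hoxd9 (6.45 FPKM against 3.98 to 4.22 FPKM), mouse 1 was lowest for Hoxc9 (3.77 FPKM against 4.46 to 4.57 FPKM), and mouse 3 was lowest for Hoxd4 (0.50 FPKM against 0.63 FPKM in the other 3 mice).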

How the results depend on the processing

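The counts of called Hox genes between cheek and trunk were within 1.5 times the reported ones under all but 1 alternative. That alternative left out cheek mice 3 and 4 and back mouse 2, which had the highest hair markers and were chosen after their values were seen, and it gave 13 members in cheek against back wounds. With these mice left out, 4 members were called in cheek wounds against unwounded cheek, and 0 between back and abdomen wounds, which was also the count without a filter and with the replicate block (mouse number as a term between sites, which names different mice). The counts of calls in wounds at an adjusted p under 0.001 were 0 for abdomen, 3 for back and 3 for cheek. In fits of each site on its own 8 libraries they were 3 in abdomen and 6 in cheek. All 24 libraries in 1 fit gave 2 members between unwounded back and abdomen, and the F test of response by site called 1 with a pseudocount of 1, with median-ratio scaling, with quantile normalization and without trend and robust estimation. Without 1 mouse at a time the counts were 1 to 7 in abdomen wounds, 9 to 17 in back wounds, 6 to 11 in cheek wounds, 0 to 1 between back and abdomen wounds and 0 to 4 for the F test, with the low ends without abdomen mouse 1, back mouse 1 and cheek mouse 3 and the high end of the F test without abdomen mouse 1.

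Directions turned for values that were not called, with no cause tested. Hoxc13 in unwounded cheek was -0.39 against abdomen and -0.13 against back without the 3 mice with high hair markers, and Hoxd3 in unwounded back against abdomen was -0.066. In abdomen wounds Hoxd3 was -0.019 with a pseudocount of 0.1 and -0.081 with quantile normalization, and Hoxb2 was 0.0023 with median-ratio scaling. Without 1 mouse at a time, abdomen wounds ranged from -0.099 to 0.18 for Hoxb2, from -0.17 to 0.15 for Hoxc6 and from -0.062 to 0.089 for Hoxd3, and cheek wounds from -0.18 to 0.074 for Hoxa7 and from -0.28 to 0.028 for Hoxd3. Back against abdomen ranged from -0.073 to 0.21 for Hoxa7 and from -0.066 to 0.11 for Hoxd3 in unwounded skin, and from -0.37 to 0.024 for Hoxa7 and from -0.16 to 0.0597 for Hoxd8 in wounds. With 4 mice a group and no counts, low members such as Hoxa6, Hoxa11 and Hoxd3 carry the least certain values.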
